A study of Homo sapiens with 2 samples.

Results

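The S100 genes encode small calcium-binding proteins, and 9 rows of the deposited gene table, of 30856 in all, carried the name of one of the 10 genes described here. S100A8, S100A9, S100A12, S100A4, S100A6, S100A10, S100A11 and S100A13 are S100 genes proper. S100PBP encodes a binding partner of S100P and is in the set by its name alone. S100Z, the other listed gene, was not analysed here. The genes were chosen by family name after the levels in these same libraries were known, S100A9 and S100A8 being among the lowest in resistant cells. Their differences between the libraries are therefore a description, and nothing is tested with them.

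Poly(A) RNA was sequenced from THP-1, a cell line from a human acute monocytic leukaemia. The parental group was 1 library of untreated cells. The resistant group was 1 library of the same line, selected by stepwise cytarabine (Ara-C, a cytosine nucleoside analogue) from 5 nM to 10 µM until it grew as fast as the untreated cells. Both were kept in the same medium with serum and antibiotics, and the labels do not say whether the resistant cells were 1 clone or carried the drug when collected. With 1 library a group there was no replicate error. Every interval below is an exact 95% interval that covers counting error only, treats read pairs as independent molecules and says nothing of the spread between cultures. The parental library held 57434972 counts and the resistant library 58285463. Monocyte markers were present in both libraries. Among 15 measured markers, 12 reached 1 FPKM (fragments per kilobase of transcript, scaled to library size) in either library. All of these but VCAN did so in both. The 15 summed to 436 FPKM in parental and 339 in resistant cells, of which LYZ alone gave 225 and 95.8. Of the markers of other cells, those of T and natural killer cells summed to 11.7 and 10.9 FPKM, nearly all NKG7. The lists for epithelial cells and fibroblasts, for B and plasma cells and for erythroid cells and megakaryocytes each had 0 genes at 1 FPKM, and summed to at most 1.19 FPKM in either library.

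S100 proteins pair into dimers, and each chain carries a pair of EF-hands, the helix-loop-helix folds that bind calcium. Binding opens a surface that grips a target protein. S100A8 and S100A9 form calprotectin, which makes up much of the cytosolic protein of neutrophils and monocytes, sequesters zinc and manganese, and acts on TLR4 and RAGE once released. S100A12 is a related granulocyte and monocyte protein, whereas S100A4, S100A6, S100A10 and S100A11 are found in many cell types, where they bind myosin, annexins and other partners. In myeloid cells the calprotectin genes are known targets of the transcription factors C/EBP and PU.1.

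The stretches of 250 bases just upstream of the start of S100A8, S100A9, S100A12 and S100A10 are shown. They come from RefSeq promoters on GRCh38.p14 whose start equals the gene's 5′ end in the deposited table. This held for 4 of the 9 genes, all of which had at least 1 RefSeq promoter, and sets which genes are shown. These 4 also had the largest differences in either direction, so no gene with a small difference could be compared. Each sequence reads 5′ to 3′ on the strand of its gene, from chr1:153391074-153391323 (minus strand) for S100A8, chr1:153357604-153357853 (plus) for S100A9, chr1:153375622-153375871 (minus) for S100A12 and chr1:151993860-151994109 (minus) for S100A10. Capitals mark every match, on either strand, to the letters of 5 motifs. Those searched for C/EBP were TTNNGNAA, where N is any base. The PU.1 letters were GAGGAA. For AP-1, part of which is the product of FOS, they were TGANTCA. The STAT letters were TTCNNNGAA. The TATA box was searched as TATAAA.
S100A8: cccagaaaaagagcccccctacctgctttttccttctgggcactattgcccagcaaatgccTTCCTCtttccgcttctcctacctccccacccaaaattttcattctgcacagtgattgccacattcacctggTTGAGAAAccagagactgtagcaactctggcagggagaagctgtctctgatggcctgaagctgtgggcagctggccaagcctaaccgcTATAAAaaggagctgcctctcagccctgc
S100A9: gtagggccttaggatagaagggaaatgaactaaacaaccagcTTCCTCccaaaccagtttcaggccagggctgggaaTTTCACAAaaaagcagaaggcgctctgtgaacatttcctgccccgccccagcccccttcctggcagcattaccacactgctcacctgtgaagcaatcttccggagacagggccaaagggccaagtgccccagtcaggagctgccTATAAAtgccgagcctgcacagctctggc
S100A12: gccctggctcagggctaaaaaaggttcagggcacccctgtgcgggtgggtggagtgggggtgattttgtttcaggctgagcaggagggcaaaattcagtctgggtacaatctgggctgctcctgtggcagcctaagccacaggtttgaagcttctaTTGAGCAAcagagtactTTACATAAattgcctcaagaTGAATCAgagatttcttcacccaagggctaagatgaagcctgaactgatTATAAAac
S100A10: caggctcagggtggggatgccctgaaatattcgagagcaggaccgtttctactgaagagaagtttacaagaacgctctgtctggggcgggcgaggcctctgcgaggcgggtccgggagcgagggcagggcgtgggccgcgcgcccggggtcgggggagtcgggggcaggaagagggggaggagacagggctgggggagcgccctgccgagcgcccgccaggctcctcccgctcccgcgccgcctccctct

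The windows of S100A8 and S100A9 held the same kinds of match, in the same order. Each had the PU.1 letters on the reverse strand, one C/EBP match and the TATA box letters. Counted from the start, the TATA box letters lay at bases -29 to -24 in both. The PU.1 letters lay at -189 to -184 in S100A8 and -208 to -203 in S100A9, and the C/EBP match at -117 to -110 (forward) and -173 to -166 (reverse). S100A12 had 2 C/EBP matches, at -94 to -87 (forward) and -77 to -70 (reverse). It also had the AP-1 letters at -57 to -51, which read the same kind of match on both strands, and the TATA box letters at -8 to -3. No other matches overlapped. The S100A10 window held no match to any of the 5 and was 71.2% G or C, against 53.2%, 55.6% and 49.2% for S100A8, S100A9 and S100A12 and a median of 58% over 35114 RefSeq promoters. Of those promoters, 33.2% held the C/EBP letters, 23.6% PU.1, 10.7% the TATA box, 6.57% AP-1 and 6.57% STAT, and 1.28% held C/EBP, PU.1 and TATA box letters together. A match shows letters, not a bound factor, and its part in the levels was not tested.

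Calprotectin RNA was far lower in the resistant cells. S100A9, on chromosome 1 from 153357854 to 153361023 (GRCh38, plus strand), stood at 487 FPKM in parental and 48.4 in resistant cells, from 18607 and 1883 counts. Its level relative to the library total was 10.0-fold lower (9.56 to 10.5), and its log2 ratio of FPKM + 1 was -3.30. S100A8 (153390032 to 153391073, minus strand) stood at 64.5 FPKM in parental and 9.40 in resistant cells, from 3833 and 569 counts, 6.84-fold lower (6.26 to 7.48) with a log2 ratio of -2.65. S100A9 was the lowest and S100A8 the 3rd lowest log2 ratio among 11356 genes that had a symbol and at least 1 FPKM in either library. That order is for the FPKM + 1 scale, which shrinks the differences of less abundant genes. By counts BHLHE22, for example, was 12.1-fold lower (10.5 to 13.9). Among the 11356 genes S100A9 passed from rank 46 to rank 683 by FPKM, and S100A8 from rank 490 to rank 4104. In these bulk libraries, fewer cells making a transcript and less of it per cell cannot be told apart.

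Both subunits were lower, but not by the same factor. By FPKM, there was 7.55 times as much S100A9 as S100A8 RNA in parental cells and 5.15 times as much in resistant cells. These ratios depend on the gene length used, which the values imply to be 0.665 kb for S100A9 and 1.03 kb for S100A8. The ratios of their counts were smaller in both libraries. The fold of S100A9 was 0.682 times that of S100A8 (0.616 to 0.755), so the difference of S100A9 was the larger one, beyond counting error. S100A12 (153373711 to 153375621, minus strand), the RAGE ligand calgranulin C, was scarce in both libraries, at 1.95 FPKM in parental and 0.58 in resistant cells. It had 64 and 20 counts, 3.25-fold lower by counts (1.94 to 5.67). Its log2 ratio of FPKM + 1 was -0.90, a scale that shrinks differences of such low genes. The fold of S100A9 was 0.324 times that of S100A12 (0.193 to 0.566), and that of S100A8 0.475 times (0.281 to 0.836). All 3 genes were thus lower, in the order S100A9, S100A8, S100A12 from the largest difference.

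**Figure D1:**
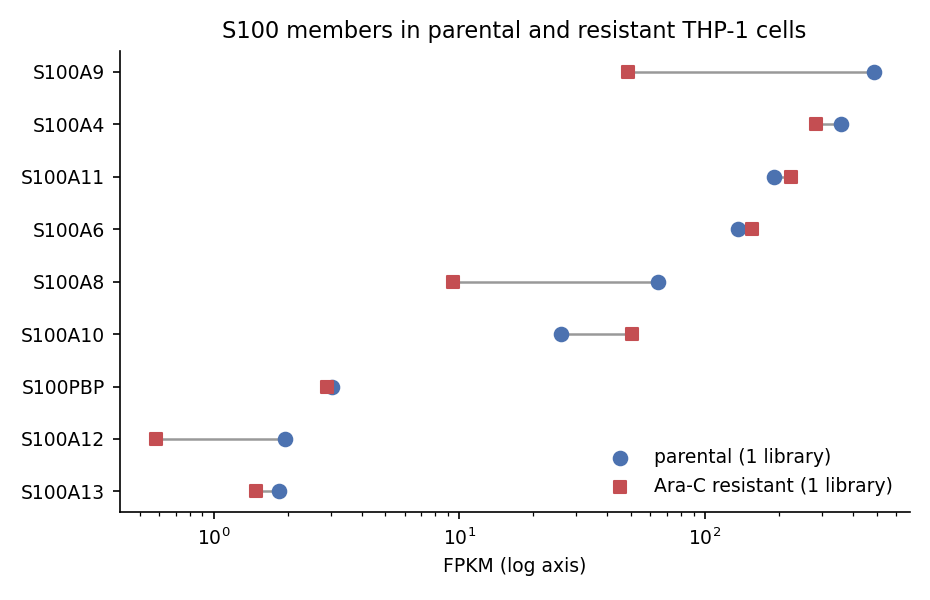
Level of each measured gene in the 2 libraries, in FPKM on a log axis; circles are the parental and squares the resistant library, joined by a line. S100A9 is at 487 and 48.4, S100A8 at 64.5 and 9.40, and S100A10 at 25.9 and 50.6.

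The other abundant S100 genes stayed high in both libraries. S100A4, which binds non-muscle myosin and is known for its link to cell motility, had 22568 counts in parental and 18255 in resistant cells, or 358 and 284 FPKM. This is 1.25-fold lower (1.23 to 1.28). S100A6, or calcyclin, stood at 137 and 156 FPKM, from 8870 and 10284 counts, a fold of 1.14 (1.11 to 1.18). S100A11, which binds annexin A1, stood at 191 and 224 FPKM, from 8247 and 9878 counts, a fold of 1.18 (1.15 to 1.22). S100A6 and S100A11 thus differed in the same direction and by nearly the same amount: the ratio of their folds was 0.968 (0.929 to 1.01).

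S100A10 differed in the opposite direction to calprotectin. S100A10 (151982915 to 151993859, minus strand) encodes p11, the partner of annexin A2 at the plasma membrane, and is unusual in the family in having lost calcium binding. It had 1746 counts in parental and 3473 in resistant cells, or 25.9 and 50.6 FPKM, a fold of 1.96 (1.85 to 2.08) with a log2 ratio of 0.94. That was the 93rd highest log2 ratio of the 11356 genes and just short of the 2-fold rule. Its fold was 1.66 times that of S100A11 (1.56 to 1.77) and 1.72 times that of S100A6 (1.61 to 1.83).

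The remaining genes were scarce and close in both libraries. S100A13, which takes part in the export of proteins that lack a signal peptide, had 274 counts in parental and 226 in resistant cells, or 1.84 and 1.49 FPKM, a fold of 0.813 (0.678 to 0.973). A row without a symbol overlaps it on the same strand and was itself lower, with 163 and 68 counts. Of the 50-base windows of S100A13 transcripts in GENCODE, 18.8% also occur in transcripts of that row, so how reads were shared between them is uncertain. S100PBP, on the short arm of the chromosome, stood at 3.04 and 2.89 FPKM, from 1870 and 1808 counts, a fold of 0.953 (0.893 to 1.02) whose interval includes equal levels. S100A8, S100A9, S100A12, S100A4, S100A6 and S100A10 shared 0 windows with another gene. S100A11 shared 12 of its 630 windows, with a gene that is none of the 3 rows found for S100 pseudogenes. Those 3 rows held at most 8 counts in either library.

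Of the 9 genes, 2 were at least 2-fold lower on the FPKM + 1 scale, S100A9 and S100A8, and 0 were at least 2-fold higher. Over all 11356 genes, 1.22% were at least 2-fold lower and 0.616% at least 2-fold higher. By counts, without a pseudocount, S100A12 was at least 2-fold lower too, which makes 3. For 8 of the 9 genes, all but S100PBP, equal levels lay outside the counting interval, but so they did for 72.8% of all genes. The median log2 ratio was -0.19 over the 9 genes and -0.02 over all genes, with 6 of the 9 below 0. Over all 11356 genes, 6052 were below 0 and 5258 above. Since S100A9 and S100A8 were a reason for the choice of the family, none of these shares supports a statement about S100 genes as a class.

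**Figure D2:**
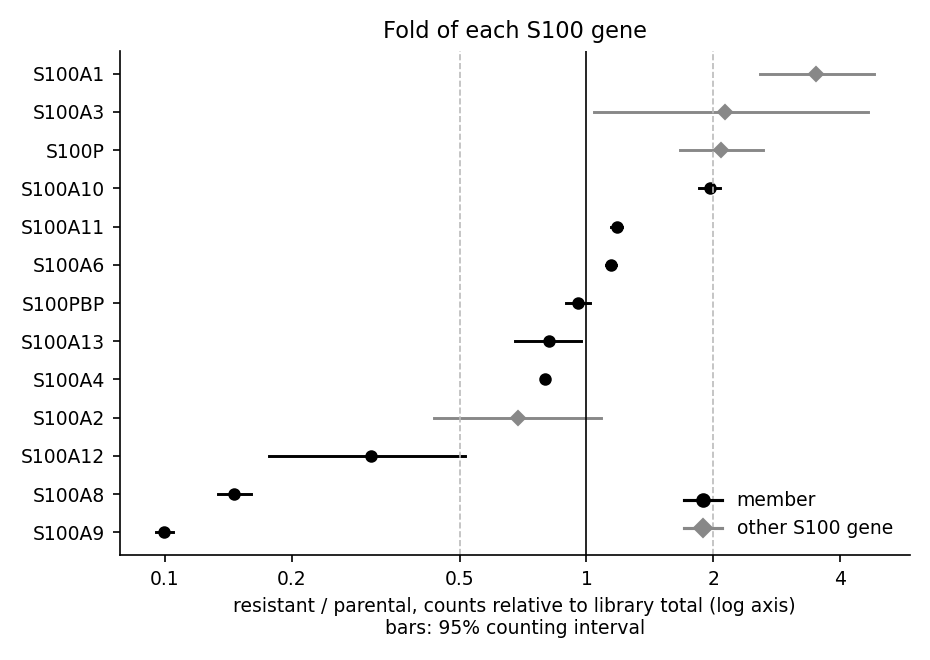
Resistant over parental level of each S100 gene, as counts relative to the library total on a log axis, with the 95% counting interval; circles are the 9 genes described and diamonds other S100 genes with at least 10 counts in a library and more than 0 in the resistant one. S100A9, S100A8 and S100A12 lie left of the dashed 2-fold line at 0.5, and S100A10 lies next to the line at 2.

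**Figure D3:**
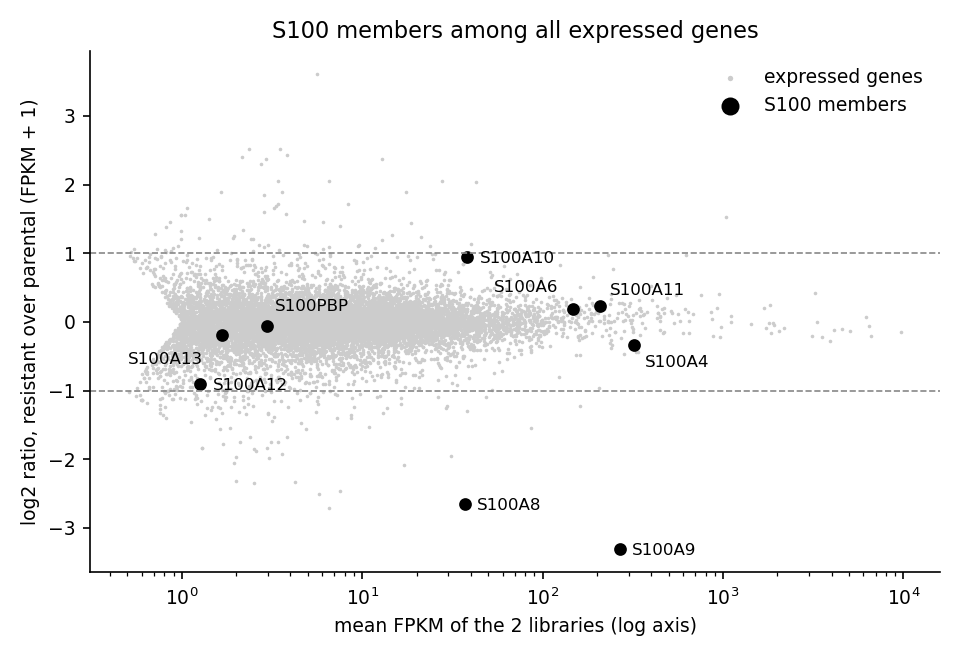
Log2 ratio of FPKM + 1 against mean FPKM (log axis) for 11356 expressed genes in grey and the S100 genes in black; dashed lines mark 2-fold. S100A9 at -3.30 is the lowest point of the plot, S100A8 at -2.65 also lies below the dashed lines, and the other 7 S100 genes lie between them.

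S100 RNA differed between the libraries both in its sum and in its make-up. Summed over the 9 genes, the level was 1270 FPKM in parental and 778 in resistant cells, a ratio of 0.613. S100A9 and S100A8 together gave 552 and 57.8 FPKM, and the other 7 genes gave 718 and 720. By summed counts those 7 stood at 0.992 times the parental level (0.979 to 1.01). The near equality hides opposite differences, with S100A4 lower and S100A6, S100A10 and S100A11 higher.

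S100A9 made up 38.4% of the summed FPKM in parental cells and 6.22% in resistant cells. S100A4 made up 28.2% and 36.5%, S100A11 15.0% and 28.8%, and S100A6 10.8% and 20.1%. S100A10 made up 2.04% and 6.50%, and S100A8 5.08% and 1.21%. By FPKM, from the highest level to the lowest, the order in parental cells was S100A9, S100A4, S100A11, S100A6, S100A8, S100A10, S100PBP, S100A12 and S100A13. In resistant cells it was S100A4, S100A11, S100A6, S100A10, S100A9, S100A8, S100PBP, S100A13 and S100A12. These shares and orders depend on the gene length used, which the values imply to be 0.665 kb for S100A9 and 1.10 kb for S100A4. By counts, S100A4 (22568) exceeded S100A9 (18607) in parental cells. S100A6 (8870 and 10284) exceeded S100A11 (8247 and 9878) in both libraries. Neighbours whose counting intervals overlapped were S100A12 and S100A13 in parental cells, and S100A10 (48.9 to 52.3 FPKM) and S100A9 (46.3 to 50.7 FPKM) in resistant cells.

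Most other S100 genes were under 1 FPKM. Of 11 on a list of further family members, 8 had a row and S100P alone reached 1 FPKM. S100P, best known from placenta and carcinomas, is the ligand of S100PBP and lies on chromosome 4. It had 118 counts in parental and 250 in resistant cells, or 3.74 and 7.82 FPKM, a fold of 2.09 (1.67 to 2.62). S100A1, known from heart muscle, had 55 and 195 counts, a fold of 3.49 (2.58 to 4.80), but overlaps S100A13 on the opposite strand. Whether the counting used strand is not given in the sources used here, so reads of this pair may not be separated. S100A3 had 12 and 26 counts, a fold of 2.14 (1.04 to 4.64), and lies within S100A4 on the same strand.

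S100A5 had 43 counts in parental and 0 in resistant cells. Set against a floor of 3 counts in the resistant library, it was at least 14.5-fold lower there, taking the 43 counts as exact. With the counting error of both libraries the interval starts at 11.3-fold. S100A2 had 50 and 35 counts, a fold of 0.690 (0.435 to 1.08). S100B had 7 and 8 counts, S100A16 had 3 and 6, and S100A14 had 0 in both, under the same floor of 3 counts. Among the fused-type relatives, large proteins of skin and hair with an S100 start, TCHH (trichohyalin) had 472 and 121 counts and was 3.96-fold lower (3.24 to 4.87), at 1.01 and 0.25 FPKM. HRNR had 16 and 0 counts, which makes it at least 5.41-fold lower against the same floor, and its interval starts at 3.91-fold.

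Of the genes described, 8 lie on chromosome 1q21, in 3 groups along 1648 kb. S100A10 and S100A11 come first, 38.6 kb apart, and both were higher in resistant cells. After a gap of 1310 kb, S100A9, S100A12 and S100A8 lie within 33.2 kb, and all 3 were lower. From there it is 144 kb to S100A6, S100A4 and S100A13, whose log2 ratios were 0.19, -0.33 and -0.19. S100A6 and S100A4 are 7.40 kb apart and differed in opposite directions. Of S100 genes under 1 FPKM, S100A5 (43 counts in parental and 0 in resistant cells) lies between them. S100A3 (12 and 26) overlaps S100A4, and S100A1 (55 and 195) overlaps S100A13. HRNR (16 and 0) lies in the gap of 1310 kb, as does TCHH.

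The only other gene with a symbol and 1 FPKM inside the span was TCHH, 3.96-fold lower by counts as given above, and 15 more lay within 500 kb on either side. TCHH reached 1 FPKM in parental cells alone (1.01 and 0.25), so its inclusion fixes its direction. On the FPKM + 1 scale 0 of these 16 were 2-fold apart, and their median log2 ratio was -0.04, with 9 below 0 and 7 above. The largest after TCHH (-0.69) were the ribosomal protein gene RPS27 (0.39), the zinc transporter gene SLC39A1 (-0.28), the sorting nexin gene SNX27 (-0.21) and SLC27A3 (-0.18). Over 1225 expressed genes of the whole chromosome the median was -0.01.

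**Figure D4:**
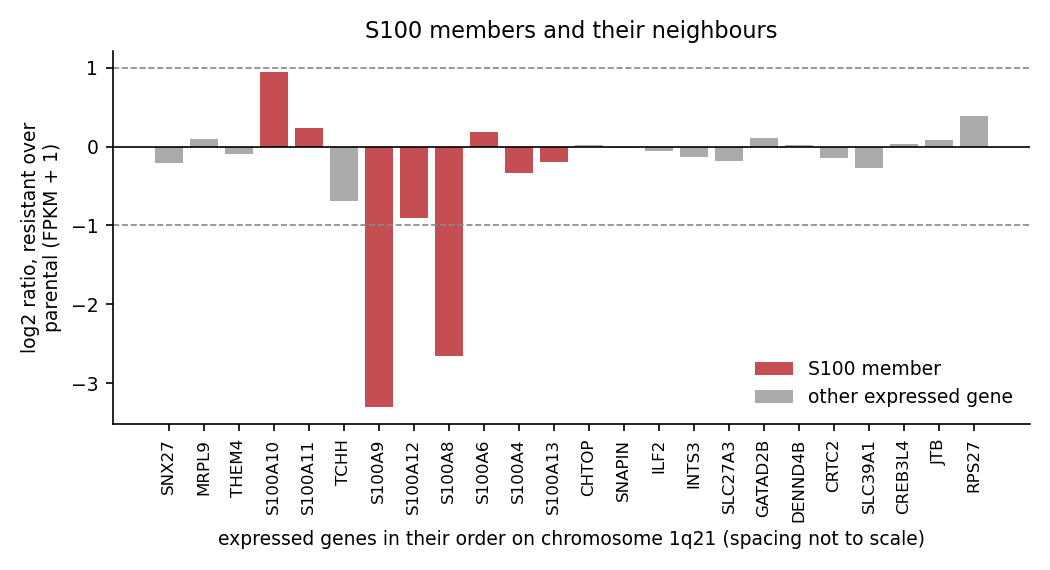
Log2 ratio of FPKM + 1 for expressed genes of chromosome 1q21 in their order along the chromosome, S100 genes in red and neighbours in grey, with spacing not to scale. Between S100A11 and S100A6, the bars of TCHH (-0.69), S100A9, S100A12 and S100A8 are negative, and the 15 flanking genes stay between -0.28 and 0.39. TCHH is shown because it reached 1 FPKM in parental cells alone, which fixes the sign of its bar.

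RNA of C/EBPα and PU.1, factors known to act on calprotectin genes, was close in both libraries. CEBPA stood at 139 FPKM in parental and 141 in resistant cells, a fold of 1.02 (0.998 to 1.03), and SPI1, which encodes PU.1, at 64.4 and 62.3, a fold of 0.970 (0.941 to 0.999). CEBPB stood at 6.18 and 6.83 FPKM and CEBPD at 28.7 and 26.5. CEBPE, the factor of late granulocytes, had 35 and 16 counts. Of 18 expressed myeloid transcription factors, the one at least 2-fold apart was FOS, a part of AP-1, at 16.7 and 5.15 FPKM, 3.23-fold lower (3.02 to 3.46). Its AP-1 partner JUN stood at 5.35 and 2.72 FPKM and the monocyte factor KLF4 at 6.09 and 3.12. The median of the 18 was -0.06, against -0.02 for all genes.

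Receptors of released S100 proteins were led by BSG (basigin, a receptor of S100A9), at 79.4 FPKM in parental and 87.7 in resistant cells. ALCAM, a RAGE-like adhesion molecule, stood at 24.1 and 22.0, and NPTN (neuroplastin, a receptor of S100A8) at 12.9 and 14.1. AGER, which encodes RAGE, had the largest difference of the 6 expressed receptors, at 3.58 and 2.25 FPKM, a fold of 0.636 (0.551 to 0.733). TLR4 stood at 1.89 and 1.85 FPKM. Its coreceptors were under 1 FPKM: CD14 had 56 and 4 counts, and LY96 (MD-2) had 7 and 0. Of the receptors, 0 were 2-fold apart by the size rule, with a median of -0.06.

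The listed annexins, membrane-binding proteins that S100 dimers link in pairs, differed by less than 2-fold. Of 8 expressed genes on the list of annexins and AHNAK, 6 were below 0 and 2 above, against 6052 below and 5258 above among all 11356. On this list 0 were 2-fold apart, and the median log2 ratio was -0.28. Outside the list, ANXA8L1 stood at 1.87 FPKM in parental and 3.97 in resistant cells, from 358 and 773 counts. ANXA8 stood at 3.83 and 5.75 FPKM and ANXA9 at 1.72 and 1.45. ANXA2, the partner of S100A10, stood at 22.0 FPKM in parental and 14.1 in resistant cells, a fold of 0.643 (0.626 to 0.661). AHNAK, a giant scaffold that binds the S100A10 and annexin A2 complex, stood at 59.4 and 45.5, a fold of 0.768 (0.760 to 0.776). ANXA5 stood at 46.6 and 35.9 FPKM, ANXA6 at 47.7 and 41.4, and ANXA1, the partner of S100A11, at 18.6 and 14.1.

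S100A10 and ANXA2 thus differed in opposite directions. By FPKM, S100A10 RNA was 1.17 times ANXA2 RNA in parental cells and 3.58 times in resistant cells. By counts ANXA2 was higher in both libraries, with 12961 and 8462 against 1746 and 3473 for S100A10. Which of them was more abundant thus depends on the gene length used. The ratio of their folds, which does not use length, was 3.05 (2.86 to 3.25). For S100A11 and ANXA1, the ratio of folds was 1.55 (1.48 to 1.63). The complex of S100A10 and annexin A2 is known to bind plasminogen and its activator. In the plasminogen list, 4 of 5 expressed genes were above 0, against 5258 of all 11356, with a median of 0.24 and 0 at 2-fold. The gene below 0 was PLAUR, at 5.53 FPKM in parental and 4.48 in resistant cells. SERPINB2 stood at 5.65 and 6.86. PLAU, the urokinase activator, stood at 9.52 and 14.5 FPKM, a fold of 1.53 (1.44 to 1.62), the plasminogen receptor PLGRKT at 5.82 and 7.66, and the enolase ENO1 at 346 and 372.

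Partners inside the cell differed little. Of 10 expressed genes, 4 were above 0 and 6 below, 0 were 2-fold apart, and the median was -0.05. MYH9, the myosin heavy chain bound by S100A4, stood at 114 FPKM in parental and 120 in resistant cells, and the fold of S100A4 was 0.758 times its own (0.741 to 0.775). The actin-capping gene CAPZA1 stood at 117 and 131, the membrane linker gene EZR at 70.1 and 76.2, and the scaffold gene IQGAP1 at 34.5 and 27.7. CACYBP, named for its binding of S100A6, stood at 32.4 and 31.8 FPKM.

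The NADPH oxidase, to which calprotectin is known to deliver arachidonic acid, was measured too. Of its 7 expressed genes, 5 were above 0, against 5258 of all 11356, with a median of 0.21 and 0 at 2-fold on the FPKM + 1 scale. CYBB, the catalytic subunit, stood at 1.57 FPKM in parental and 3.49 in resistant cells, 2.23-fold higher by counts (1.99 to 2.49). NCF1, a cytosolic subunit with near-identical pseudogenes between which reads may be split, had 188 and 458 counts, 2.40-fold higher (2.02 to 2.86). NCF1 reached 1 FPKM in resistant cells alone (0.79 and 1.91), so its place among the 5 was fixed by the filter. The membrane partner of CYBB, CYBA, stood at 52.6 and 56.5 FPKM, RAC2 at 79.2 and 96.9, and RAC1 at 81.5 and 67.1.

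Among 36 other expressed EF-hand genes, 22 were above 0 and 14 below, 0 were 2-fold apart, and the median log2 ratio was 0.02. The most abundant were nearly equal: LCP1 (plastin) stood at 187 FPKM in parental and 188 in resistant cells, MYL6 at 84.5 and 85.5, and the calmodulin gene CALM3 at 79.5 and 79.4. The largest difference was that of AIF1, a macrophage EF-hand protein, at 44.3 and 22.9 FPKM, a fold of 0.518 (0.490 to 0.548).

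Markers of monocytes and of neutrophil granules were present beside calprotectin and varied in both directions. Of 12 expressed monocyte markers, 2 were at least 2-fold lower and 1 higher, with a median of -0.03. The lower ones were lysozyme (LYZ), at 225 FPKM in parental and 95.8 in resistant cells, and the proteoglycan gene VCAN, at 5.38 and 0.90. The higher one was FCER1G, a signalling chain of Fc receptors, at 14.8 and 32.8. Of 7 expressed neutrophil granule genes 0 were 2-fold apart on the FPKM + 1 scale, and their summed level with the other measured genes of that list was 1159 and 1385 FPKM. ELANE stood at 359 and 448, AZU1 at 305 and 326, PRTN3 at 331 and 299, CTSG at 155 and 306, and MPO at 2.81 and 0.94. By counts MPO was 2.97-fold lower (2.55 to 3.47). CD14, under 1 FPKM in both libraries, had 56 and 4 counts and was 14.2-fold lower (5.25 to 54.0). Of the 12 expressed monocyte markers, 6 were below 0 and 6 above. MMP8 and MMP9 were at 0. The part of these markers in the S100 differences was not tested.

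**Figure D5:**
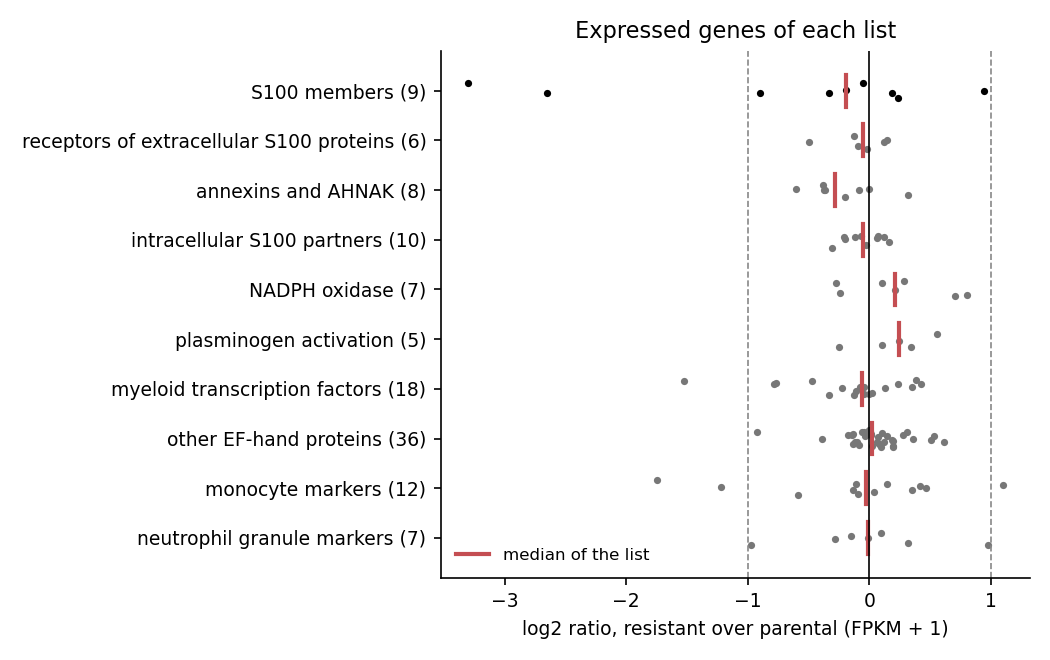
Log2 ratio of FPKM + 1 of each expressed gene in lists with at least 5 expressed genes (number in brackets); each dot is a gene, the red bar is the list's median and dashed lines mark 2-fold. The S100 genes lie between -3.30 and 0.94 and the other EF-hand genes between -0.92 and 0.61. S100A9 and S100A8 were a reason for the choice of the S100 genes, so their wider range is no comparison of families. Genes under 1 FPKM in both libraries are not shown.

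The genes closest to calprotectin by their difference were all less abundant. The mean log2 ratio of S100A8 and S100A9 was -2.98, and over 6404 protein-coding genes with 5 FPKM in the higher library the nearest were BHLHE22 (-2.71), SAP30 (-2.51), DMRTA2 (-2.47), C8orf44-SGK3 (-2.34) and PRDX2 (-2.08). In parental cells these stood at 12.1, 10.5, 13.4, 7.75 and 28.1 FPKM, below both S100A8 and S100A9. By counts, in the same order, they were 12.1-, 10.2-, 8.32-, 10.6- and 4.76-fold lower, beside 10.0-fold for S100A9 and 6.84-fold for S100A8. Likeness here is the distance between log2 ratios over 2 libraries, which is all that such a design allows.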

How the data were processed

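RNA-seq of 1 parental and 1 resistant THP-1 library was used. The submitters' processing notes name StringTie 1.3.4d, HISAT2 2.0.4, edgeR, DESeq2 and cutadapt 1.9, and the build GRCh38, with no role or order; per the labels' protocols, libraries were paired-end and marked strand. The authors deposited FPKM, scaled to length and library, and unnormalized whole-number counts. The resistant count column carries a suffix the labels do not explain. Over 6156 genes with at least 5 FPKM and 100 counts in both libraries, its log2 ratio differed from that of FPKM by a constant (median -0.025, SD 0.00093).

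The FPKM values, with 1 added, were compared as the log2 ratio of resistant to parental over 11356 genes with an HGNC symbol and at least 1 FPKM in either library, and a size rule of 2-fold. Folds are counts relative to library totals, with exact intervals (Clopper-Pearson; conditional odds ratio between genes). FPKM intervals scale those of the counts. No test between conditions was possible. Folds were tested on simulated data. Python 3.11.15, scipy 1.17.1, numpy 2.4.6, pandas 2.3.3 and matplotlib 3.10.9 were used.

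Members, lists, motifs and alternatives were chosen with earlier results of these data known. Named were all members, other S100 genes with 10 counts, list genes past the size rule (otherwise the 3 most abundant and the largest difference), the 5 nearest patterns and 5 neighbours. CEBPA, CEBPB, CEBPD, CEBPE, SPI1, JUN, KLF4, TLR4, CD14, LY96, CTSG, NCF1, ANXA1, ANXA8, ANXA8L1, ANXA9, PLAUR, SERPINB2, CACYBP, MMP8, MMP9, HRNR, EFHD1, GCA, SPARC, DGKA, S100B, S100A14 and S100A16 were added after their values were seen.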

Additional observations from a re-analysis of the deposited data

How the results depend on the processing

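The direction of each of the 9 genes was the same under a pseudocount of 0.1 or 5 FPKM, centring on the median gene, and CPM (counts scaled to library total) with a pseudocount of 1, in all 36 values computed. In 3 of these, all with 5 FPKM, a value moved by more than its counting error. With 0.1 FPKM, S100A12 joined S100A9 and S100A8 as at least 2-fold lower, at a log2 ratio of -1.59. Under a 1.5-fold rule, 3 genes were lower and 1, S100A10, was higher. The counts over all genes depended on the setting. Lower and higher genes, 139 and 70 as reported, were 364 and 220 with 0.1 FPKM, 16 and 14 with 5 FPKM, 263 and 112 with CPM, 53 and 36 with a minimum of 5 FPKM, and 540 and 328 under the 1.5-fold rule. Over the fixed lists other than cell markers, 1 gene was lower and 0 higher as reported. These were 2 and 3 with 0.1 FPKM, 2 and 2 with CPM, and 6 and 4 under the 1.5-fold rule. A smaller pseudocount shrinks low genes less, by construction. The ratio of summed levels, 0.613, was 0.692 by counts, and 1.00 without S100A8 and S100A9. No paired analysis was possible because each group held 1 library, and no library could be left out. Depth limits S100A12, S100A3, S100A5 and S100A2, which had 64 counts or fewer in each library.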
